A study of Mus musculus with 12 samples.

Results

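Cholesterol synthesis and its control by SREBP (sterol regulatory element-binding protein) were examined through 29 of the 38887 genes in the count tables. The genes were chosen by name, as the enzymes from acetyl-CoA to cholesterol, the SREBP regulators and proteins that move or store sterols, with earlier results of these data known. All 29 were found and all 29 passed the filter on low counts.

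The RNA-Seq libraries came from bone marrow-derived macrophages (BMMs) of 3 WT and 3 IGF2BP2 KO mice, differentiated for 6 days with 50 ng/ml M-CSF. BMMs stayed untreated (M0) or received 20 ng/ml IL-4 for 8 h (M2), which gave 4 groups of 3 libraries. In KO mice loxP sites flanked exons 4 and 5 of Igf2bp2, an RNA-binding protein gene, and Cre was expressed from the Lyz2 locus, so that the deletion is not restricted to macrophages. WT littermates had no floxed allele and carried Cre in some animals only, and marrow was taken at 3 to 4 months of age from littermates matched for sex.

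Cells make cholesterol from acetyl-CoA through mevalonate, farnesyl diphosphate, squalene and lanosterol. When sterols in the endoplasmic reticulum are scarce, Scap escorts SREBP to the Golgi, where it is cut into an active transcription factor for the enzymes of the pathway. When sterols are plentiful, INSIG proteins hold Scap back and the enzyme genes are transcribed less. In macrophages cholesterol also arrives by uptake, is released from lysosomes by Npc1 and is stored as esters made by Soat1.

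SREBP is known to act at promoters through sterol regulatory elements, often beside the CCAAT box bound by NF-Y and the GGGCGG box bound by Sp1. RefSeq promoters on GRCm38.p6, from 250 bases before to 50 bases after a transcription start, were found for 23 of the 29 genes, with 31 promoters in all. Sqle, Npc1, Fdps, Fdft1, Acat3 and Stard4 were not in the table. Shown are Hmgcs1, with the only element TCACNCCAC, and Mvd, Msmo1, Insig1 and Soat1, whose IL-4 responses differed between the genotypes, each read 5′ to 3′ on the strand of the gene. Capitals mark CCAAT boxes on either strand (CCAAT or ATTGG) and, in Hmgcs1 only, also the 9 letters TCACCCCAC of the element.
Hmgcs1, chr13:119690101-119690400, plus strand: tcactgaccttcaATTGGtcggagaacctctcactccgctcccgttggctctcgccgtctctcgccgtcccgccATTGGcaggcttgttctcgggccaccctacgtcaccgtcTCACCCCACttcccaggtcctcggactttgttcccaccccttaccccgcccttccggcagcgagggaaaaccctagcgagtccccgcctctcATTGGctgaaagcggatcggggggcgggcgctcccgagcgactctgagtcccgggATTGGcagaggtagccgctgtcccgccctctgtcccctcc
Mvd, chr8:122443373-122443672, minus strand: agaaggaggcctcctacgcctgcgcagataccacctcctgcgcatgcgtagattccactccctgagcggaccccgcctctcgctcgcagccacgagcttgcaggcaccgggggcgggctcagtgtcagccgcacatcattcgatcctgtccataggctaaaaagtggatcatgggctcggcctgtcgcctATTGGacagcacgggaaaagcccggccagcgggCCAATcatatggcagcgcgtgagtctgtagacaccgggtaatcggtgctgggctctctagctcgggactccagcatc
Msmo1, chr8:64733529-64733828, minus strand: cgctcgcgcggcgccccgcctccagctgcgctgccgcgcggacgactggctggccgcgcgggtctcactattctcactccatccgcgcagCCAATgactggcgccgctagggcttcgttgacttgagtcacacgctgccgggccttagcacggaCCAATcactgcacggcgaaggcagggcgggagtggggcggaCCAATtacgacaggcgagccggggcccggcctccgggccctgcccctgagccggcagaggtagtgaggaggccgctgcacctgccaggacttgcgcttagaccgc
Insig1, chr5:28071162-28071461, plus strand: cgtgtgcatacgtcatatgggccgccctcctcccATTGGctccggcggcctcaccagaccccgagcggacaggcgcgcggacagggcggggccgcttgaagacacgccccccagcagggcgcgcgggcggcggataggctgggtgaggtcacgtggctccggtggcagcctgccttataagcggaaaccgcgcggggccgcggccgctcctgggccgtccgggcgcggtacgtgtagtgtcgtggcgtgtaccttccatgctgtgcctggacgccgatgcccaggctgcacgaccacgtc
Soat1, chr1:156474279-156474578, minus strand: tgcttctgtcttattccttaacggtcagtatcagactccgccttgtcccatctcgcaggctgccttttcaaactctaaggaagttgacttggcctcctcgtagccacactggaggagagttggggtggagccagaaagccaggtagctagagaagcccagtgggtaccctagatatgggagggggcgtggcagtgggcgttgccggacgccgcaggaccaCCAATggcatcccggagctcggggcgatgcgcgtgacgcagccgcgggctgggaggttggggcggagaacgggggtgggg

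The element TCACNCCAC, searched on both strands, was in 3.23% of the 31 promoters, in 1.24% of all 32851 mouse promoters in the table and in 1.11% of the 12368 promoters of genes tested here. In Hmgcs1 it lay from position -137 to -129, counted from the transcription start. CCAAT boxes were in 71.0% of the 31 promoters, against 37.4% of all promoters and 38.0% of those of genes tested. They occurred in 21 of the 23 genes, all but Acat2 and Scap, with 3 boxes in Msmo1 and 2 in Mvd. The GGGCGG box was in 80.6% of the 31 promoters, against 35.7% of all and 62.1% of those of genes tested. A match is a description of these letters in these windows and not a measured binding site. Only this form of the element was searched, so the absence of a match does not show that no such element is present.

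Total counts per library lay between 20011792 in WT M2 and 39632770 in KO M2, and precision is given by the spread of the 3 libraries of a group. All 8 macrophage markers were present in every library, with a summed level of 3834 to 4713 TPM (a level relative to transcript length and to the total of a library). The 6 IL-4 response markers summed to 90.5 to 113.75 TPM for WT and 60.8 to 70.85 TPM for KO in M0, so that the genotypes did not overlap, and in M2 to 6327 to 8046 TPM for WT and 6550 to 6595 TPM for KO, which overlapped. Of 7 neutrophil and progenitor markers, Ly6g was at 0 in all libraries and Elane and Mpo stayed at or under 0.24 TPM, and in M0 the list summed to 22.1 to 55.9 TPM for WT and 16.7 to 18.4 TPM for KO. In M2 the sums were 13.1 to 32.9 TPM for WT and 12.8 to 17.8 TPM for KO. The 6 stromal markers, 3 of them under 1 TPM in all libraries, summed in M0 to 10.9 to 21.3 TPM for WT and 3.39 to 12.6 TPM for KO, and in M2 to 12.2 to 22.8 TPM for WT and 3.18 to 10.8 TPM for KO, without overlap in M2. Summed levels reached at most 1.07 TPM for lymphoid, dendritic and mast cell lists, with Cd3e, Cpa3 and Tpsb2 at 0. The sum of the neutrophil and progenitor list was thus lower in KO M0 than in every WT M0 library, of which library 3 was the lowest, although S100a8 and Camp overlapped between the genotypes, and the part of these lists in the results below was not tested. In such bulk libraries fewer cells of a type and less RNA per cell cannot be told apart. Expression of Igf2bp2, counted over the whole gene including exons that remain, differed between KO and WT by -0.11 in M0 (log2 scale, edgeR adjusted p = 0.656) and by -0.65 in M2 (edgeR adjusted p = 0.0285). Lyz2, the lysozyme gene that carries Cre, was also lower in KO, at 22.1 to 33.2 CPM (counts relative to the library total) in M0 against 7030 to 10500 CPM in WT M0 (log2 difference -8.30, edgeR adjusted p = 7.73e-10), and by -8.57 in M2. Effects of this second difference and of the Igf2bp2 deletion cannot be told apart in KO against WT. The untreated library of WT culture 3 stood apart in several genes described here, with 93.8 CPM of Fdps against 51.3 and 67.3 in the other WT M0 libraries, and results are therefore also given without this culture.

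On the TPM scale, which allows levels of different genes to be compared, Npc1, Msmo1, Fdps and Ebp were the most abundant of the 29 in WT M0. Npc1 had 135, 117 and 91.8 TPM, Msmo1 had 103, 111 and 116 TPM, and Fdps had 82.4, 106 and 140 TPM, so that their libraries overlapped and the order among them was not resolved. Ebp followed with 94.9, 93.9 and 103 TPM, also overlapping. The lowest was Acat3, with 0.87, 0.26 and 2.84 TPM, while every other gene of the pathway was above 10 TPM in each WT M0 library. Summed over the 21 enzymes, levels were 718, 787 and 860 TPM in WT M0 and 913, 891 and 840 TPM in KO M0. In M2 the sums were 595, 598 and 560 TPM in WT and 582, 523 and 519 TPM in KO. Every M2 library was thus below every M0 library, while KO and WT overlapped in both treatments.

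The first comparison asked how untreated KO macrophages differed from WT. A group of 3 genes at separate steps of sterol metabolism were higher in KO M0, by 1.27-fold to 1.47-fold, and none was lower. Without WT M0 library 3 the count was 7, and without both libraries of WT culture 3, an exclusion chosen after seeing the data, it was 9. The count was 2 without KO M0 library 2 and with limma on TPM. Without WT M0 library 2, Mvd and Soat1 stayed called higher and Acat3 was called lower. The 3 genes were Mvd, which makes the isoprene unit isopentenyl diphosphate, Lss, which closes the sterol rings as lanosterol synthase, and Soat1, which esterifies cholesterol for storage. Of all 12846 genes tested, 5.50% were called higher in KO M0 and 4.27% lower, at an edgeR adjusted p under 0.05. At an unadjusted p under 0.05 there were 13 genes, where 25.3% of all genes passed. DESeq2 called 6 higher and 1 lower (Acat3), where it called 7.74% of all genes higher and 5.16% lower. Also without a call the direction was mostly upward, as 25 of the 29 genes had a positive log2 fold change (86.2%, against 49.7% of all genes). The median over the 29 was 0.152 against -0.001 over all genes. Without WT M0 library 1 the median was 0.081, with 23 genes positive. Genes are not independent replicates, so here and below such shares and medians are descriptions and not tests. All KO libraries were above all WT libraries in 12 of the 29 genes and below in 1, where 16.2% of all genes had every KO library higher and 14.9% every one lower.

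Mvd measured 10.7, 11.7 and 13.9 CPM in WT M0 and 18.8, 17.9 and 16.6 CPM in KO M0. The lowest KO library was above the highest WT library, and the log2 fold change was 0.56 (edgeR adjusted p = 0.00433, SE 0.10). Soat1 measured 180, 156 and 147 CPM in WT M0 and 224, 216 and 222 CPM in KO M0. Here too the groups were separate, with a log2 fold change of 0.45 (edgeR adjusted p = 0.00168, SE 0.07). Lss measured 26.3, 28.4 and 30.2 CPM in WT M0 and 33.4, 39.3 and 35.2 CPM in KO M0. The groups did not overlap and the log2 fold change was 0.35 (edgeR adjusted p = 0.0158, SE 0.08), but the call was lost without WT M0 library 2 or KO M0 library 2 (edgeR adjusted p up to 0.0761) and with limma on TPM (adjusted p up to 0.251).

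Among the regulators, which act on the whole pathway, all 5 had a positive log2 fold change in KO M0 and none passed the edgeR test, while 3 had an unadjusted p under 0.05 and DESeq2 called Insig1 and Srebf1. Insig1, which retains Scap in the endoplasmic reticulum, differed by 0.21 (edgeR adjusted p = 0.0513). Srebf1, the SREBP gene tied mostly to fatty acid synthesis, differed by 0.23 (edgeR adjusted p = 0.0544). Srebf2, the SREBP gene tied mostly to cholesterol synthesis, differed by 0.16 (edgeR adjusted p = 0.136). Scap and Insig2 differed by 0.07 each (edgeR adjusted p = 0.424 and 0.394).

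The 9 enzymes after lanosterol gave no call with edgeR in KO M0, while 4 had an unadjusted p under 0.05 and DESeq2 called Msmo1. Their log2 fold changes ran from -0.12 for Ebp, a sterol isomerase, to 0.33 for Msmo1, the methylsterol monooxygenase (edgeR adjusted p = 0.0796). Acat3 had a log2 fold change of -2.84 (edgeR adjusted p = 0.055) from counts that were low, between 0.184 and 0.239 CPM in KO M0 and between 0.296 and 3.35 CPM in WT M0. Acat3 lies next to its paralog Acat2 on chromosome 17 (chr17:12923813-12940600 and chr17:12942890-12960747 in GRCm38, both minus strand), and reads that match both were divided between them. With the counts of Acat2, the acetoacetyl-CoA thiolase at the start of the pathway, and Acat3 summed, the log2 fold change was 0.05 (edgeR adjusted p = 0.745).

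The same comparison in M2 gave a different picture. Only 1 gene was called, Stard4, a cytosolic sterol transfer protein and known SREBP target, which was 0.704-fold of the WT level in KO. The count was 0 without WT M2 library 2, KO M2 library 2 or KO M2 library 3, 2 without WT M2 library 3, 4 without KO M2 library 1 and 6 without both libraries of WT culture 3. No gene was called higher, and the background was 1.21% of all genes called higher and 1.46% lower. At an unadjusted p under 0.05 there were 9 genes, where 20.3% of all genes passed. DESeq2 called Insig1 beside Stard4 and none higher, where it called 3.22% of all genes lower. In all, 20 of the 29 genes had a negative log2 fold change and 9 a positive one, with a median of -0.07 against -0.001 over all genes. The median was -0.027 without KO M2 library 3, -0.114 without WT M2 library 3 and -0.136 without KO M2 library 1, with 19 or 20 genes negative in these fits. In 2 genes every KO library was below every WT library and in 2 every one was above, where 11.7% of all genes had every KO library lower and 13.1% every one higher.

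Stard4 measured 32.7, 36.8 and 38.0 CPM in WT M2 and 29.2, 22.6 and 24.1 CPM in KO M2. Every KO library was lower, although KO library 1 came close to WT library 1, and the log2 fold change was -0.51 (edgeR adjusted p = 0.0157, SE 0.09). The call was lost without WT M2 library 2, KO M2 library 2 or KO M2 library 3, with limma on TPM and with only the M2 libraries in the fit (adjusted p up to 0.0897). The summed stromal markers were also lower in every KO M2 library (3.18 to 10.8 TPM against 12.2 to 22.8 TPM), and their part in this difference was not tested. Insig1 measured 77.0, 76.1 and 68.0 CPM in WT M2 and 67.0, 60.1 and 58.9 CPM in KO M2. These libraries did not overlap, and the log2 fold change of -0.25 (edgeR adjusted p = 0.0588, SE 0.06) did not pass the test.

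**Figure D1:**
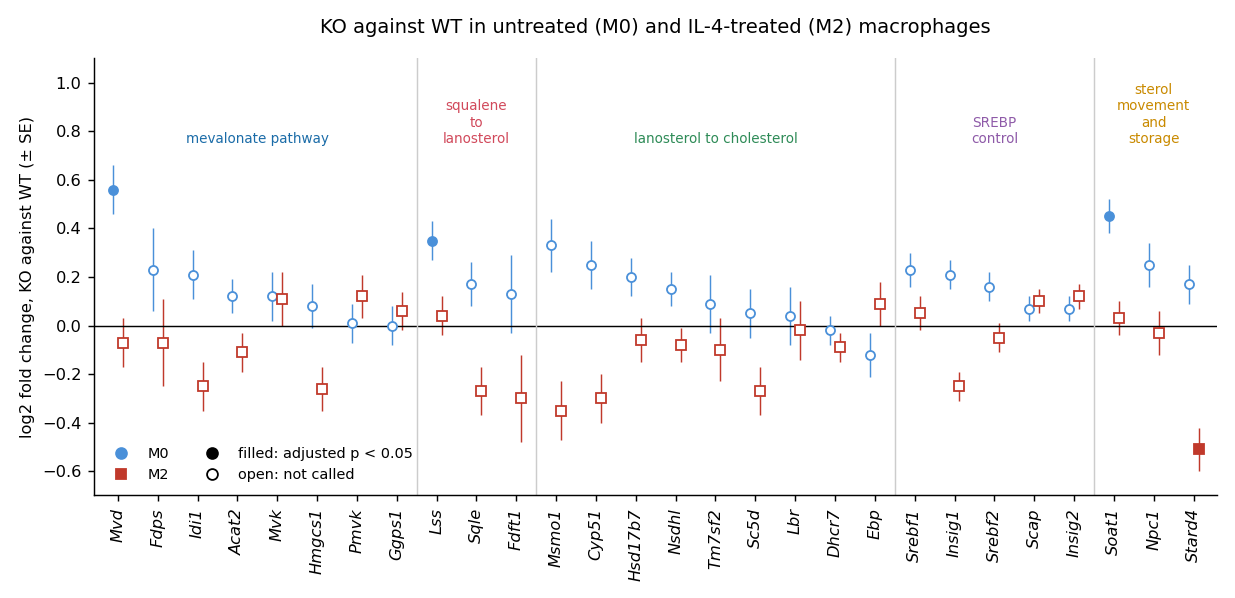
Log2 fold change between KO and WT (y axis, ± SE from edgeR, n = 3 libraries per group) for 28 genes on the x axis ordered by role, in M0 (circles) and M2 (squares), with filled symbols for adjusted p under 0.05 and Acat3 left out for its wide error. Mvd (0.56), Lss (0.35) and Soat1 (0.45) are called in M0, Stard4 (-0.51) is called in M2, and most circles lie above 0 while most squares lie below.

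Across the 29 genes the KO effects in M0 and in M2 did not run in parallel. They come from separate libraries but, by the library numbers, from the same cultures. Spearman's rho was -0.14 over the 29 genes and 0.21 over all 12846 genes tested, and genes are not independent replicates. Pearson's r was 0.79 over the 29 but rested on Acat3, without which it was -0.18 over 28 genes.

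The next comparison asked how IL-4 changed the pathway in WT macrophages. Most enzymes of cholesterol synthesis that changed fell, whereas Soat1, Npc1, Insig2, Mvd and Scap rose. In all, 10 of the 29 genes were called lower and 5 higher, where 25.1% of all genes were lower and 24.9% higher. The median log2 fold change was -0.13, against -0.01 over all genes. This median rested on single WT libraries, as it was 0.015 without the untreated library of culture 3, with 15 genes positive and 14 negative, -0.025 without both libraries of culture 3 and -0.204 without the untreated library of culture 1, with 12 genes called lower. Without both libraries of culture 3, 7 genes were called lower and 4 higher.

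The 3 largest rises were in Insig2, Npc1 and Soat1. Insig2, like Insig1 a retention factor for Scap but not known as a main SREBP target, measured 28.6, 29.0 and 28.7 CPM in WT M0 and 61.3, 60.9 and 55.6 CPM in WT M2. No library came near the other group, and the log2 fold change was 1.04 (edgeR adjusted p = 2.55e-09, SE 0.05). Npc1, the membrane protein that exports cholesterol from lysosomes, rose from 369, 327 and 273 CPM to 587, 563 and 519 CPM, by a log2 fold change of 0.78 (edgeR adjusted p = 1.63e-05, SE 0.09). WT culture 3 was the lowest of the 3 in both treatments. Soat1 rose from 180, 156 and 147 CPM to 275, 273 and 254 CPM, by a log2 fold change of 0.73 (edgeR adjusted p = 1.3e-06, SE 0.07), again without overlap.

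The 3 largest falls were in Lbr, Hsd17b7 and Sc5d, all of which act between lanosterol and cholesterol. Lbr, a sterol reductase that also anchors chromatin at the nuclear lamina, measured 66.6, 81.6 and 101 CPM in WT M0 and 39.8, 42.2 and 49.0 CPM in WT M2. The highest M2 library was below the lowest M0 library, and the log2 fold change was -0.93 (edgeR adjusted p = 3.63e-05, SE 0.12). Hsd17b7, a keto-reductase that acts while methyl groups of lanosterol are removed, fell from 27.6, 33.3 and 33.8 CPM to 18.6, 17.8 and 15.5 CPM, by 0.86 on the log2 scale (edgeR adjusted p = 4.87e-06, SE 0.09). Sc5d, the lathosterol desaturase, fell from 29.8, 31.1 and 32.9 CPM to 20.4, 19.1 and 16.6 CPM, by 0.74 on the log2 scale (edgeR adjusted p = 5.47e-05, SE 0.10).

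By role, 3 of the 9 mevalonate genes fell in WT, which were Idi1, the isomerase of the isoprene unit (-0.55), Fdps, the farnesyl diphosphate synthase (-0.66), and Acat2 (-0.55), while Mvd rose (0.55). Fdft1, the squalene synthase (-0.68), and Sqle, the squalene epoxidase (-0.27), fell as well, although Sqle lost its call without WT library 2 or 3 in M0 or WT library 1 or 3 in M2. Beyond lanosterol Msmo1 (-0.66) joined Lbr, Hsd17b7 and Sc5d, which made 4 of 9. Of the 5 regulators Scap (0.18) rose beside Insig2, and Stard4 fell (-0.49). The other 14 genes did not pass the test, and apart from Acat3 (-0.63, SE 0.74) their log2 fold changes lay between -0.27 for Tm7sf2, a sterol reductase like Lbr, and 0.15 for Lss. Among them were Mvk and Pmvk, the kinases of mevalonate and of its phosphate, Ggps1, the geranylgeranyl diphosphate synthase, Nsdhl, a dehydrogenase that removes methyl groups of lanosterol, and Dhcr7, a reductase of the final step. Ebp (-0.20, edgeR adjusted p = 0.0799) was also among the 14 and was called lower with the culture as a replicate block. Without both libraries of WT culture 3, Fdps (-0.34, edgeR adjusted p = 0.0739), Fdft1 (-0.38, edgeR adjusted p = 0.0523), Sqle (-0.12, edgeR adjusted p = 0.318) and Scap (0.16, edgeR adjusted p = 0.0518) were no longer called. Scap also lost its call without WT M2 library 2, with library totals alone and with limma on TPM (adjusted p up to 0.64).

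In KO macrophages IL-4 lowered 16 of the 29 genes and raised 5, where 26.0% of all genes were lower and 26.8% higher. The median log2 fold change was -0.24, against 0.01 over all genes. Beyond the 10 genes called lower in WT, the 16 comprised Hmgcs1, the cytosolic HMG-CoA synthase (-0.26), Cyp51, the lanosterol demethylase (-0.76), Tm7sf2 (-0.46), Insig1 (-0.45), Srebf1 (-0.21) and Srebf2 (-0.24). Hmgcs1 lost its call without KO library 1 or 2 in M0 or KO library 2 or 3 in M2 (edgeR adjusted p up to 0.124), and Srebf1 without KO M0 library 1 or KO M2 library 2 or 3 (edgeR adjusted p up to 0.0846). Scap, Insig2, Npc1, Soat1 and Ggps1 rose, by log2 fold changes of 0.20 to 1.09. Ggps1 lost its call in the same 4 fits as Hmgcs1, with DESeq2, without a filter, with library totals alone and with limma on TPM (adjusted p up to 0.307), and Scap lost it with limma on TPM (adjusted p = 0.718). The 8 genes not called were Mvk, Pmvk, Mvd, Lss, Nsdhl, Ebp and Dhcr7, between -0.17 and 0.01, and Acat3 (0.71, SE 0.98). The responses of WT and KO, from separate libraries, were alike in order, with Spearman's rho of 0.77 over the 29 genes and 0.80 over all genes, and Pearson's r of 0.79 and 0.86. Without Acat3 the values over 28 genes were 0.88 for rho and 0.92 for r. A call in KO without one in WT does not show a difference, and this was tested directly.

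**Figure D2:**
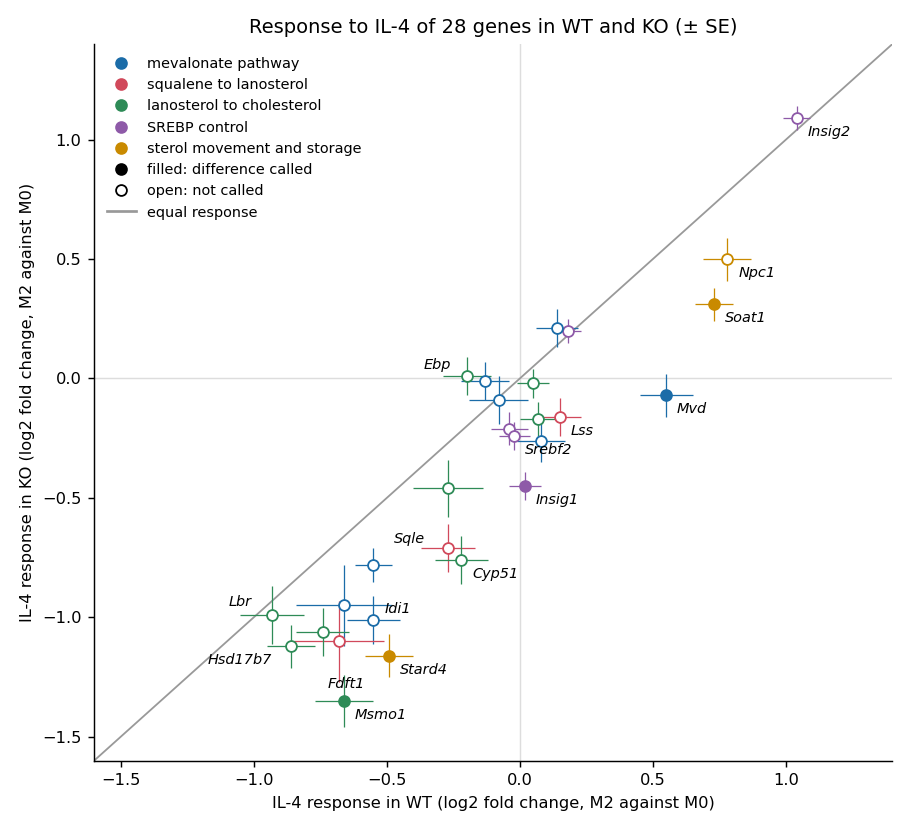
Log2 fold change on IL-4 in WT (x axis) against that in KO (y axis) for 28 genes (± SE from edgeR, n = 3 libraries per group, Acat3 left out for its wide error), coloured by role, with the line of equal response and filled points for a called difference. Insig2 lies on the line near 1, and Mvd, Msmo1, Insig1, Stard4 and Soat1 are the filled points, all below it.

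The difference between the responses, KO minus WT, was called for 5 of the 29 genes, all lower in KO, where 2.13% of all genes were called lower and 1.11% higher. The count was 1 without WT M2 library 2, KO M0 library 2 or KO M2 library 3, and 8 without WT M0 library 3 or KO M2 library 1. The 5 genes were Mvd, Msmo1, Insig1, Stard4 and Soat1, from 4 of the 5 roles. In Msmo1 and Stard4 the fall was steeper in KO, in Mvd and Soat1 the rise seen in WT was not called or smaller, and Insig1 was lowered by IL-4 in KO with no call in WT. Of all 29, 23 differences were negative (79.3%, against 48.7% of all genes), with a median of -0.26 against 0.01 over all genes. Each difference equals the KO effect in M2 minus that in M0, from the same libraries. The upward effects in M0 thus enter these counts, which are not a separate finding. At an unadjusted p under 0.05 there were 14, where 17.8% of all genes passed. DESeq2 called 8, all lower, where it called 4.97% of all genes lower.

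Msmo1 measured 103, 111 and 127 CPM in WT M0 and 73.6, 74.7 and 67.1 CPM in WT M2. In KO it measured 151, 138 and 140 CPM in M0 and 68.9, 49.2 and 51.1 CPM in M2. KO was thus above WT in every M0 library and KO libraries 2 and 3 were below WT in M2, with KO library 1 inside the WT range. The response was -0.66 in WT and -1.35 in KO on the log2 scale, a difference of -0.69 (edgeR adjusted p = 0.0381, SE 0.16), and this call disappeared in 9 of 12 leave-one-out fits and with upper-quartile factors (edgeR adjusted p = 0.062).

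Stard4 measured 49.2, 49.9 and 51.3 CPM in WT M0 and 57.1, 58.6 and 53.4 CPM in KO M0, and its M2 values are given above. Its KO libraries were the highest of all in M0 and the lowest of all in M2. The response was -0.49 in WT and -1.16 in KO, a difference of -0.68 (edgeR adjusted p = 0.012, SE 0.12). It was called in all 12 leave-one-out fits and missed the threshold with limma on TPM (adjusted p of 0.0555 and 0.0576).

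Insig1 measured 72.6, 71.3 and 74.9 CPM in WT M0 and 80.8, 88.8 and 83.9 CPM in KO M0. As in Stard4, the KO libraries were above WT in M0 and below WT in M2. The response was 0.02 in WT and -0.45 in KO, a difference of -0.46 (edgeR adjusted p = 0.016, SE 0.09), which was lost in 3 of the 12 fits. Insig2, which serves the same retention, had a difference of 0.05 (edgeR adjusted p = 0.752, SE 0.07), with 30.3, 29.7 and 30.7 CPM in KO M0 and 64.4, 63.2 and 65.8 CPM in KO M2.

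For Mvd the M2 libraries lay at 17.4, 17.7 and 18.0 CPM for WT and at 18.6, 16.6 and 15.6 CPM for KO, so that the genotypes overlapped after IL-4 and differed before it. The response was 0.55 in WT and -0.07 in KO, a difference of -0.63 (edgeR adjusted p = 0.0279, SE 0.14), lost in 7 of the 12 fits. Soat1 likewise overlapped in M2, with 276, 264 and 278 CPM for KO against 275, 273 and 254 CPM for WT. Its response was 0.73 in WT and 0.31 in KO, a difference of -0.42 (edgeR adjusted p = 0.0279, SE 0.09), lost in 8 of the 12 fits and with limma on TPM (adjusted p up to 0.0937). Lss was not called here, with a difference of -0.31 (edgeR adjusted p = 0.157, SE 0.11) and with 34.0, 28.3 and 31.9 CPM in WT M2 and 32.6, 32.4 and 31.7 CPM in KO M2.

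**Figure D3:**
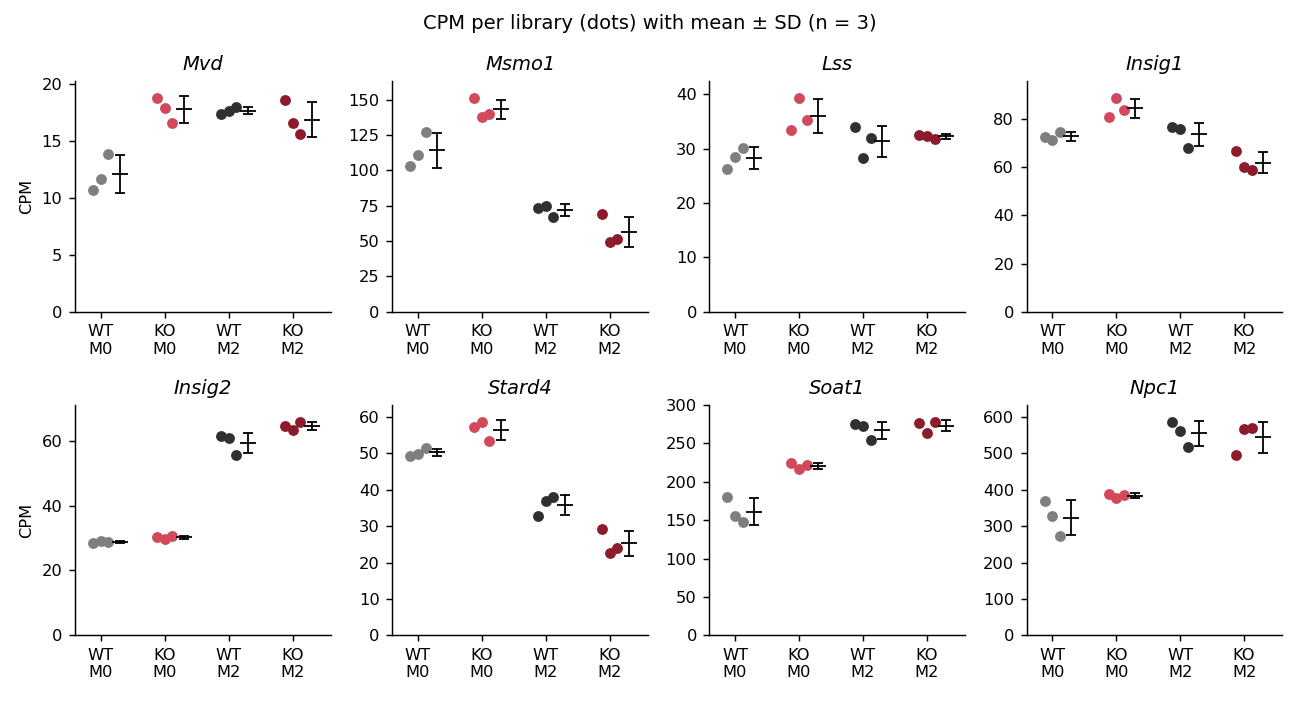
CPM (y axis, from 0) of 8 genes in each of the 12 libraries (dots) in WT and KO, M0 and M2, with the mean ± SD of each group (n = 3). Msmo1, Insig1 and Stard4 are higher in KO than WT in M0 and lower or at the lower end in M2, Mvd and Soat1 are higher in KO in M0 and overlap in M2, and Insig2 rises alike in both genotypes.

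Cyp51 was just outside the threshold, with a difference of -0.54 (edgeR adjusted p = 0.0637), and it was called with the culture as a replicate block, which raised the count to 6. Idi1 (-0.46, edgeR adjusted p = 0.0936) and Sqle (-0.44, edgeR adjusted p = 0.104) came next. Without both libraries of WT culture 3 these 3 genes were called beside the other 5, which made 8. No enzyme differed upward, and the highest value among well-expressed genes was 0.21 for Ebp (edgeR adjusted p = 0.402), while the sparsely counted Acat3 gave 1.35 (edgeR adjusted p = 0.615, SE 1.23).

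Untreated and IL-4-treated libraries of the same number varied together and were taken as 1 culture, which the labels do not state. A response was computed for each culture as the log2 ratio of its 2 libraries. The median over the 29 genes was -0.01, -0.04 and -0.29 in WT cultures 1 to 3 and -0.20, -0.28 and -0.27 in KO cultures 1 to 3. By this median WT culture 3 lay below every KO culture, while medians over all genes were between -0.01 and 0.01 in the 6 cultures. All 3 KO cultures were below all 3 WT cultures in 13 of the 29 genes, where 16.0% of all genes showed this order, and they were above in Ebp only, where 14.8% of all genes showed the reverse order. These ratios use the same libraries as the tests above and are not separate support for them.

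**Figure D4:**
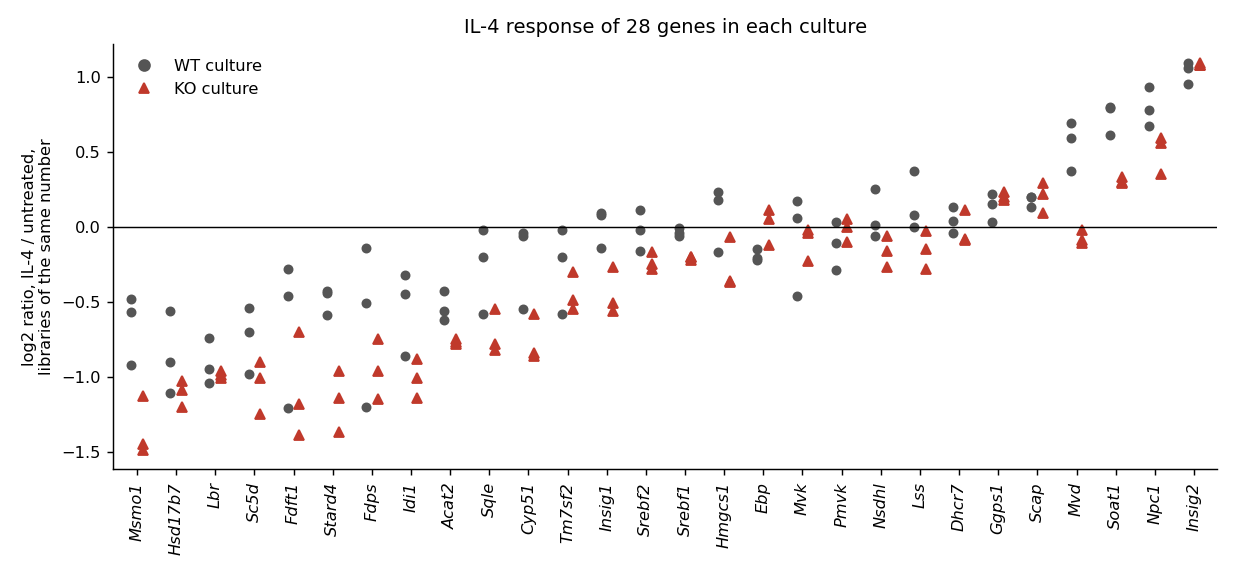
Log2 ratio of IL-4-treated to untreated CPM (y axis) in each of 3 WT cultures (circles) and 3 KO cultures (triangles) for 28 genes (x axis), ordered by their mean, with Acat3 left out. KO cultures are below WT cultures in 13 genes, among them Msmo1, Stard4, Insig1, Mvd and Soat1, and the cultures overlap for Lbr, Hsd17b7 and Insig2.

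For Stard4 the responses were -0.59, -0.44 and -0.43 in WT cultures and -0.96, -1.37 and -1.14 in KO cultures. Insig1 gave 0.08, 0.09 and -0.14 in WT cultures against -0.27, -0.56 and -0.51 in KO cultures. Npc1, with no call for the difference, gave 0.67, 0.78 and 0.93 in WT cultures against 0.35, 0.59 and 0.56 in KO cultures. In all 3 genes the cultures of the genotypes did not overlap. Fdps showed how far WT cultures could lie apart, with -0.14, -0.51 and -1.20, a range that held all KO cultures at -0.75, -1.15 and -0.96.

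Other genes of the same pathways were counted for comparison, against the shares of all genes given above (25.1% lower and 24.9% higher on IL-4 in WT, 26.0% and 26.8% in KO, and 17.8% at an unadjusted p under 0.05 for the difference). Of 15 genes of the fatty acid arm of SREBP, 8 fell and 3 rose on IL-4 in WT and 8 fell and 2 rose in KO, with no difference called between the responses by edgeR (3 at an unadjusted p under 0.05) and a median difference of -0.07. Its smallest p was that of Elovl5, a fatty acid elongase (-0.26, edgeR adjusted p = 0.0633), which was also the only gene of this arm called in KO M0 (0.20, edgeR adjusted p = 0.0206), with none in M2. Of 17 genes that process or transport SREBP, 6 rose and 3 fell in WT and 5 rose and 3 fell in KO, and none differed between the responses by edgeR (4 at an unadjusted p under 0.05). In KO M0 1 of these was called lower and none higher, and in M2 none.

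Of 8 genes tested among 9 listed for LXR and sterol efflux, 3 rose and 3 fell on IL-4 in each genotype, and 1 differed upward between the responses, Arl4c, an LXR target (0.38, edgeR adjusted p = 0.016, SE 0.07). In all, 2 of these 8 were called lower in KO M0, where 4.27% of all genes were, and none was called in M2. Of 12 lysosomal and transfer proteins 3 were called higher in KO M0, where 5.50% of all genes were, and none in M2, and 1 differed between the responses, Gramd1b, which carries cholesterol from the plasma membrane (-0.63, edgeR adjusted p = 0.0132, SE 0.12). On IL-4, 4 of these rose and 2 fell in WT, and 1 rose and 3 fell in KO. The 10 genes of the non-sterol isoprenoid branch and the 6 helpers of sterol enzymes tested among 7 listed gave no edgeR call for the difference and none at an unadjusted p under 0.05, with medians of 0.04 and -0.03. On IL-4, 2 genes of the isoprenoid branch rose and 2 fell in WT, and 3 rose and 1 fell in KO, while 1 helper rose and 1 fell in WT and 1 fell in KO. In KO M0 Coq2, a prenyltransferase of ubiquinone synthesis, was called lower (-0.29, edgeR adjusted p = 0.0199), with no other call among these 16 genes in KO against WT.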

How the data were processed

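Poly(A) RNA of 12 libraries was sequenced in single reads. Per the methods of the study, reads were checked with FastQC 0.11.2, processed with the Grape-nf pipeline and aligned to GRCm38, and the quantifier and annotation release are not given in the sources used here. The authors deposited 1 table per library with TPM and with expected counts, estimated read numbers that split ambiguous reads between genes. The authors' own DESeq2 1.40.2 comparisons (fold changes and p-values) were deposited too and were used for gene symbols only.

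After rounding and filterByExpr, 12846 genes entered edgeR 4.0.16 in R 4.3.3 (TMM scaling, quasi-likelihood F test on 4 group coefficients, all 12 libraries in one model). Benjamini-Hochberg adjustment covered every gene tested, with 0.05 as the limit for a call. SE was computed from the fold change and F. CPM are TMM-scaled. Alternatives were DESeq2 1.42.0, other scalings and filters, limma-trend 3.58.1 on log2(TPM + 1) or log2(TPM + 0.1), fewer libraries and a replicate block. Tables were summarised with Python 3.11.15 and pandas 2.3.3.

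Groups were taken from the sample labels. Deviations from the group means of untreated and IL-4-treated libraries of the same number correlated by 0.103 to 0.364 in WT and 0.16 to 0.209 in KO, so that the numbers pair these libraries. Between WT and KO of the same number the correlations were -0.0684 to 0.0403, and the genotypes were taken as unpaired. All genes of the module were reported, with library values for those called between genotypes or in the difference and for the 3 largest changes on IL-4 in WT in each direction. Members and lists were chosen with earlier results of these data known.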

Additional observations from a re-analysis of the deposited data

Results flagged for a closer look

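The response to IL-4 differed between KO and WT, by the test of the difference itself (edgeR adjusted p under 0.05), for 5 genes. The differences, KO minus WT on the log2 scale, were -0.63 for Mvd, -0.69 for Msmo1, -0.46 for Insig1, -0.68 for Stard4 and -0.42 for Soat1. The report gives how often each call was lost when 1 library was left out.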

How the results depend on the processing

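No gene changed direction with its call under any alternative. For KO against WT in M0 the count of 3 genes became 5 with RLE size factors, with at least 10 counts in every library and with only the libraries of the comparison, and 7 without a filter and with DESeq2. Leaving out 1 library gave 2 to 7, with 7 without WT M0 library 3, and Mvd and Soat1 were called in all of these fits. For M2 the count of 1 became 0 with limma at either pseudocount and with only the M2 libraries, and 2 with DESeq2. Leaving out 1 library gave 0 to 4, with 0 without WT M2 library 2, KO M2 library 2 or KO M2 library 3, 2 without WT M2 library 3 and 4 without KO M2 library 1. On IL-4, leaving out 1 library gave 14 to 17 genes in WT and 18 to 22 in KO. For the difference between the responses the count of 5 became 3 with limma at either pseudocount and 8 with DESeq2. Leaving out 1 library gave 1 to 8, with 1 without WT M2 library 2, KO M0 library 2 or KO M2 library 3, 2 without WT M0 library 2, KO M0 library 1 or KO M2 library 2, 3 without WT M2 library 1 or KO M0 library 3, and 8 without WT M0 library 3 or KO M2 library 1.

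Without both libraries of WT culture 3, an alternative chosen after seeing the data, 9 genes were called in M0, 6 in M2 and 8 in the difference. With the replicate block the counts were 4 in M0, 1 in M2, 16 and 21 on IL-4 in WT and KO and 6 in the difference, and no call was lost. In M0 it added Srebf1, although library numbers do not pair WT with KO, and on IL-4 in WT it added Ebp. Over all genes, calls in M0 were 1256, against 752 and 700 with limma, and in M2 344, against 713 with DESeq2, 70 and 57 with limma and 165 with only its own libraries. In the difference they were 416, against 816 with DESeq2, 113 with limma and 1003 with the replicate block. Library totals alone moved the median of all genes on IL-4 in WT to -0.10, with 4 genes called higher and 14 lower. The causes of these shifts were not tested. Precision at low counts was poorest for Acat3.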
